A study of Mus musculus with 6 samples.

Results

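*Mest* and *Peg3*, a pair of imprinted genes, were both higher in muscle stem cells (MuSCs) without the RNA-binding protein QKI. They were found by looking up 22 imprinted genes by symbol (*H19*, *Igf2*, *Dlk1*, *Meg3*, *Rian*, *Mirg*, *Peg3*, *Peg10*, *Mest*, *Plagl1*, *Grb10*, *Ndn*, *Snrpn*, *Igf2r*, *Gnas*, *Nnat*, *Sgce*, *Impact*, *Phlda2*, *Zim1*, *Airn* and *Kcnq1ot1*) in the authors' deposited table of 398 genes. Only *Mest* and *Peg3* had a row, and the other 20 genes were not analysed here. The search by Ensembl identifier gave the same 2 genes. The genes were thus chosen by the same FPKM values that are compared here, with their direction known, and no test is drawn from them.

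QKI-cKO mice were QKI 2lox/2lox;Pax7 CreERT2/+ and QKI-ctrl littermates were QKI 2lox/2lox;Pax7 +/+, so both groups carried loxP sites around *Qk* exon 2 and only QKI-cKO carried the Cre allele, which is driven by the *Pax7* promoter. According to the methods, all mice received 4-hydroxytamoxifen once daily for 5 d at 6 to 8 wk of age. MuSCs of 3 mice per group were sorted as ITGA7-positive cells negative for blood, endothelial and Sca1 markers, and were cultured for 72 h in growth medium before polyadenylated RNA was sequenced. The labels call the groups KO and WT. The effects of the Cre allele and of the loss of QKI cannot be told apart.

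The deposited table gives 1 FPKM value (a count of sequenced fragments divided by transcript length and by library size) per gene and group, pooled over the 3 libraries. No SD and no test between replicates could be computed, the depth is unknown, and every difference given here is a description of the pooled values with no replicate check. All 398 rows are marked as significant by the authors, so a gene's presence says that their test called it, and the levels of all other genes are unknown here. Read as log2, the fold cutoffs that the paper states are larger than the log2 ratios of *Mest* (0.70) and *Peg3* (0.33), so the table was not cut at them. Over the whole table, QKI-cKO had the higher value for 228 genes (57.3%) and the lower value for 170 (42.7%). The paper's own counts of up-regulated and down-regulated genes differ slightly from these. The targeted gene *Qk* was listed at 262 FPKM in QKI-cKO and 128 FPKM in QKI-ctrl, a value that counts exons outside the deleted one and so does not check the deletion. The paper itself reports deletion of exon 2 by RT-qPCR in the sequenced MuSCs, and loss of QKI by immunostaining of MuSCs on myofibers. In bulk RNA, more cells that express a gene and more RNA per cell cannot be told apart.

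An imprinted gene is transcribed mainly from the copy inherited from one parent, because DNA methylation set in the egg or sperm marks the 2 parental copies differently. Imprinted genes lie in clusters, and many of them control growth before birth. In mice, several of them are also active in adult stem and progenitor cells. Peg3, a zinc finger transcription factor also called PW1, is known in muscle from MuSCs and from a population of interstitial cells. Mest, the mesoderm-specific transcript, encodes an enzyme-like protein of the alpha/beta hydrolase fold. Both are expressed from the paternal copy. The pooled values do not separate the parental copies, so allelic expression was not measured.

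The start sites of *Mest* and *Peg3* lie in regions whose methylation is known to differ between the parental copies, and the promoter windows are shown for that reason. Each runs from 250 bases before to 50 bases after the RefSeq start on GRCm38.p6, with CpG dinucleotides, the bases at which this methylation is set, in capitals. The *Mest* window is chr6:30737800-30738099 on the plus strand, the upstream one of a pair of RefSeq starts 3 bases apart, and the *Peg3* window is chr7:6730370-6730669 on the minus strand.
Mest: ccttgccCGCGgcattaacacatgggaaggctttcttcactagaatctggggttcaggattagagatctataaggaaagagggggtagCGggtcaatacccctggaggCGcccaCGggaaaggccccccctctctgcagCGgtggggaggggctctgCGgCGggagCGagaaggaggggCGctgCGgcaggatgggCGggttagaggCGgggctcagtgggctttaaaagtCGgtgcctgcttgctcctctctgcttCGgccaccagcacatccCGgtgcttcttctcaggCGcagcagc
Peg3: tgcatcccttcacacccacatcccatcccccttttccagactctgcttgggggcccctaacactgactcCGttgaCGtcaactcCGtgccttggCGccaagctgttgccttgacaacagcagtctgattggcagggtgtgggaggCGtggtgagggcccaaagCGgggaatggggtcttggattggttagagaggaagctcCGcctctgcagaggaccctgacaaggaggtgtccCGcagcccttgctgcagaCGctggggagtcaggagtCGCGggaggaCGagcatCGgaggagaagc

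*Mest* was listed at 43.0 FPKM in QKI-cKO and 26.5 FPKM in QKI-ctrl. The QKI-cKO value was 1.63-fold higher, a log2 ratio of 0.70 and a difference of 16.6 FPKM. Among the 228 higher genes, whose median ratio was 1.46-fold, *Mest* ranked 79 by fold and 27 by the difference in FPKM. Its level ranked 57 of all 398 genes in QKI-cKO and 80 in QKI-ctrl, well above the median gene of the table (6.17 FPKM in QKI-cKO and 6.29 FPKM in QKI-ctrl).

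*Peg3* was the more abundant of the pair in both groups and had the smaller ratio. It was listed at 70.0 FPKM in QKI-cKO and 55.9 FPKM in QKI-ctrl, 25.4% higher (log2 ratio 0.33), beside 62.7% higher for *Mest*. By fold it ranked 220 of the 228 higher genes, close to the smallest ratio among them (1.22-fold), while its difference of 14.2 FPKM ranked 33.

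On the scale of FPKM, which is per length, the differences of the 2 genes were thus similar and their folds were not. *Peg3* stood at 1.63 times the level of *Mest* in QKI-cKO and at 2.11 times in QKI-ctrl, and the log2 ratio of *Mest* was larger than that of *Peg3* by 0.38. Whether this difference exceeds the spread between mice was not tested. Together the 2 genes summed to 113 FPKM in QKI-cKO and 82.3 FPKM in QKI-ctrl. Both genes were chosen with their direction known, and 57.3% of all genes in the table were higher. A value higher by at least 25% was found for both and for 55.5% of the table. No higher gene of the table had a ratio below 1.22-fold, so this mark nearly repeats the share that was higher. A value higher by at least 50% was found for *Mest* alone of the pair and for 25.6% of the table. *Peg3* passed the mark of 25% narrowly, and with 1 FPKM added to both groups it did not reach it.

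**Figure D1:**
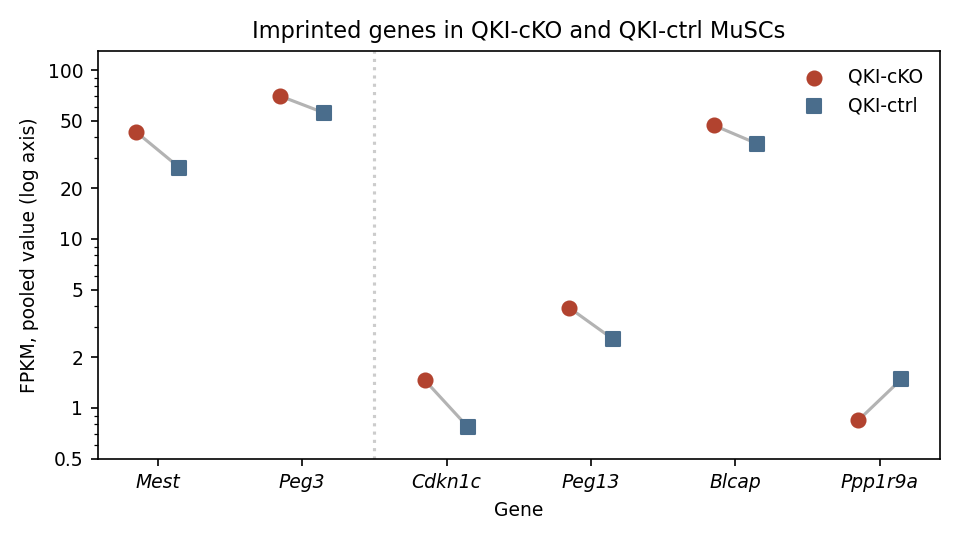
Pooled FPKM (log axis) of the 6 imprinted genes with a row in the deposited table, with QKI-cKO as red circles on the left of each pair and QKI-ctrl as blue squares on the right. *Mest* and *Peg3* stand left of the dotted line; all genes but *Ppp1r9a* are higher in QKI-cKO, and there are no error bars because each group has 1 pooled value.

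To describe other imprinted genes, a list of 88 was looked up, made of the 22 above and 66 more, 38 of the 88 being known as imprinted in a few tissues only. In all, 6 had a row, 5 of them higher (57.3% of the whole table) and 1 lower in QKI-cKO (42.7%). The median log2 ratio of these 6 was 0.49, beside 0.36 over the whole table. The list was written with the paper's own gene table known, so these counts are not independent evidence of a direction.

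*Cdkn1c*, which encodes an inhibitor of cyclin-dependent kinases and is expressed from the maternal copy, was listed at 1.46 FPKM in QKI-cKO and 0.767 FPKM in QKI-ctrl. Its 1.90-fold ratio was the largest of the 5 higher imprinted genes and ranked 43 of the 228 higher genes. Its level was the lowest of the 5, and with 1 FPKM added to both groups its log2 ratio was 0.48 in place of 0.93. The difference was 0.691 FPKM, a small amount beside the 16.6 FPKM of *Mest*.

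*Peg13*, a paternally expressed noncoding RNA, had 3.91 FPKM in QKI-cKO and 2.56 FPKM in QKI-ctrl (1.53-fold). *Blcap*, which encodes a small conserved protein and is imprinted in some tissues only, had 47.1 FPKM in QKI-cKO and 36.7 FPKM in QKI-ctrl (1.28-fold). In fold *Blcap* was close to *Peg3*, and in level it stood nearer to *Mest*. The 3 abundant genes, *Peg3*, *Blcap* and *Mest*, were all listed above 25 FPKM in both groups, whereas *Cdkn1c*, *Peg13* and *Ppp1r9a* were below 5 FPKM.

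*Ppp1r9a* was the exception in direction. It encodes neurabin, an actin-binding protein that carries a protein phosphatase to its targets, and is imprinted in some tissues only. It was listed at 0.843 FPKM in QKI-cKO and 1.48 FPKM in QKI-ctrl, a log2 ratio of -0.81. *Ppp1r9a* and *Mest* are both on chromosome 6 but lie in different imprinted clusters, and their values went in opposite directions.

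**Figure D2:**
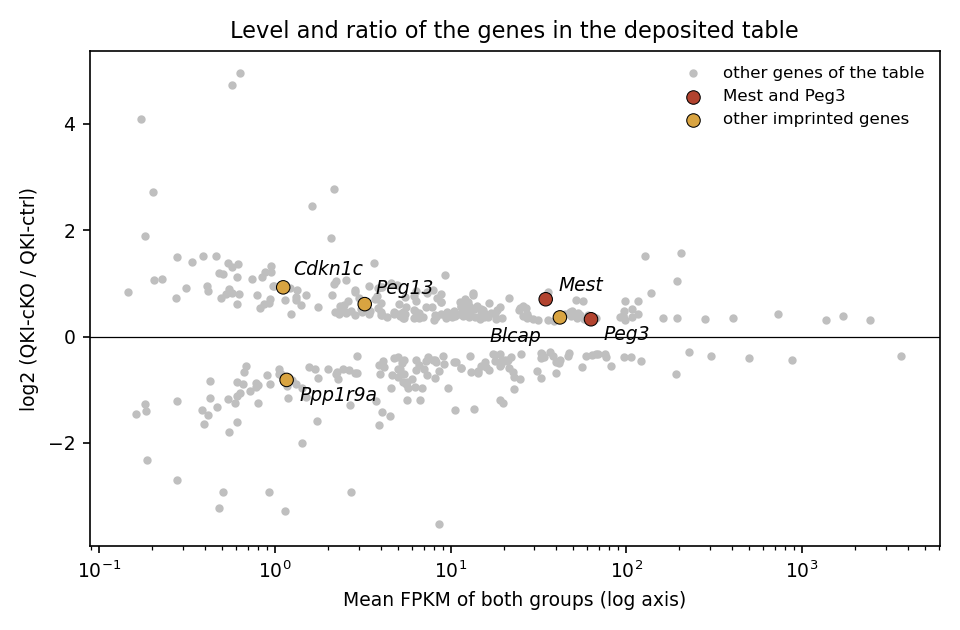
Each point is a gene of the deposited table, with the mean FPKM of both groups on the x axis (log axis) and the log2 of QKI-cKO over QKI-ctrl on the y axis; 4 genes listed at 0 FPKM in a group are not drawn. *Mest* (0.70) and *Peg3* (0.33) lie among the more abundant genes, and *Cdkn1c* (0.93), *Peg13* (0.61) and *Blcap* (0.36) are above 0 while *Ppp1r9a* (-0.81) is below.

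The 6 genes are spread over the genome. In GENCODE vM21 on GRCm38, *Mest* (ENSMUSG00000051855.15) lies on chromosome 6 from 30723547 to 30748465 on the plus strand. The authors used the same build, but for their splicing analysis they name a later GENCODE release. *Peg3* (ENSMUSG00000002265.17 in the table, the preceding version in GENCODE vM21) lies on chromosome 7 from 6703892 to 6730431 on the minus strand. *Cdkn1c* lies at the other end of chromosome 7 (143458339 to 143461050), *Peg13* on chromosome 15 (72805600 to 72810324), *Blcap* on chromosome 2 (157556362 to 157571274) and *Ppp1r9a* on chromosome 6 (4902917 to 5165661). No other gene of the table lies within 1 Mb of *Mest* or *Peg3*, nor of *Cdkn1c*, *Peg13* or *Ppp1r9a*. Within 1 Mb of *Blcap* there was 1 gene, *Rbl1*, 352 kb away, which was lower in QKI-cKO.

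Overlapping genes bear on how the values can be read. The locus that the table gives for *Mest* is 173 kb long although the gene spans 24.9 kb, since it reaches to the far end of *Copg2*, a coat protein gene on the opposite strand. The exons of *Mest* and *Copg2* share 912 bases at their 3′ ends, of 3945 exonic bases of *Mest*. The library kit keeps the strand, but whether the counting used it is not given in the sources used here, and without it reads from the shared bases cannot be told apart. *Mir335*, a microRNA gene, lies in an intron of *Mest*, and its mature products are not measured in polyadenylated RNA libraries of this kind. *Peg3* overlaps no annotated gene, and *Usp29*, which is transcribed in the opposite direction, starts 147 bases from it. *Peg13* lies wholly within an intron of *Trappc9* on the same strand, so that unspliced *Trappc9* RNA cannot be told apart from it with or without strand. The listed locus of *Peg13* is 473 kb long although the gene spans 4.725 kb, and it covers all of *Trappc9*. Of the exonic bases of *Cdkn1c*, 625 overlap the antisense gene *Gm44732*. *Nnat*, 1 of the 20 genes without a row, lies in an intron of *Blcap* on the opposite strand and shares no exonic base with it.

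**Figure D3:**
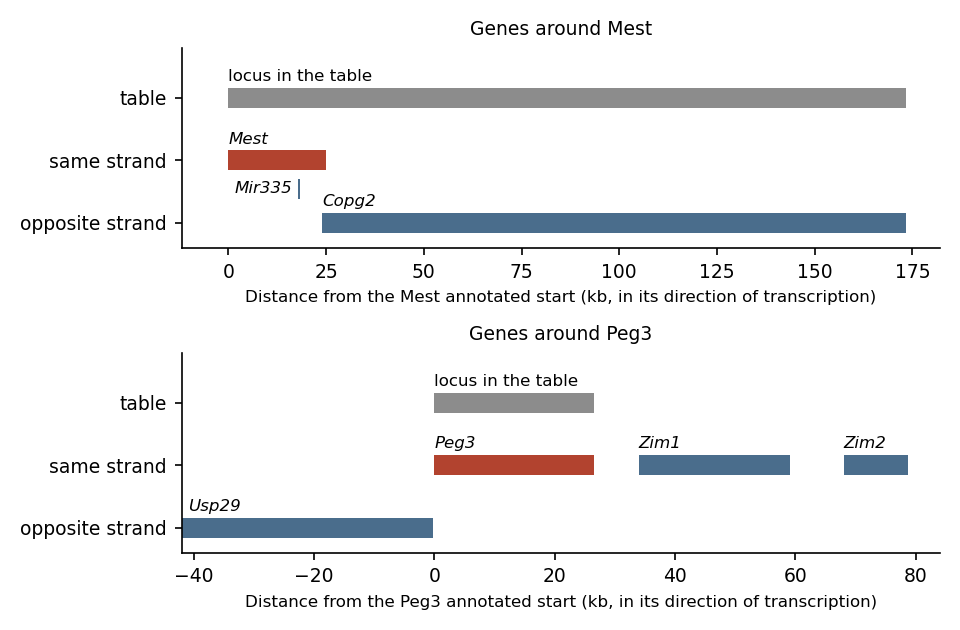
Gene spans around *Mest* (top) and *Peg3* (bottom) in kb from the annotated start of each gene and in its direction of transcription, by strand, with the locus given in the deposited table in grey; predicted genes are left out, *Mir335* is on the same strand as *Mest* and drawn below it, and *Usp29* runs beyond the left edge. The *Mest* locus of the table (173 kb) also covers *Copg2*, and the *Peg3* locus covers *Peg3* alone.

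The promoter windows differed in CpG content. The *Mest* window holds 17 CpGs and the *Peg3* window 13, beside a median of 7 over 32851 windows of 300 bases, and 31.4% and 37.9% of all windows hold as many or more. Another RefSeq start of *Mest*, at chr6:30733256-30733555, has 8 CpGs. The *Blcap* window has 17, the *Ppp1r9a* windows have 48 and 10, and windows were found for 4 of the 6 genes. GCCATNTT, the core of the motif of the zinc finger factor YY1, was searched on both strands and had no match in the windows of these 4 genes, while 6.05% of all windows hold it. Most windows lack the motif, so its absence does not set these genes apart. Bases outside the windows were not searched for it. DNA methylation was not measured.

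QKI binds RNA at a response element with the core ACUAAY, written ACTAAC or ACTAAT in DNA letters, and it is known to bind such elements in introns and in 3′ UTRs. The full element as the paper gives it also has a second part, UAAY, near the core. Both cores were searched on the transcript strand in the longest GENCODE vM21 transcript of each gene, and the second part was not searched for. The matches are shown because they hold the letters that QKI is known to bind, with the core in capitals and 12 bases on either side. The *Mest* site (chr6:30747454-30747459, plus strand) lies in the 3′ UTR, before the part shared with *Copg2*. The *Ppp1r9a* sites (chr6:5162048-5162053 and chr6:5164762-5164767, plus strand) are also in the 3′ UTR.
Mest: taggacattctgACTAATaacacttttcat
Ppp1r9a, first site: gttacaaatcaaACTAATgttccttacatc
Ppp1r9a, second site: gatgcttctgtcACTAACtgctggctctct

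The 2665-nt *Mest* transcript thus has 1 core, and 47.2% of the 3713 genes whose longest transcript is within 10% of that length have as many or more. Of the 11 annotated *Mest* transcripts, 3 have a core. The 8694-nt *Peg3* transcript has 0 cores, as do 13.9% of 589 genes of like length, for which the median is 2. Of the 4 annotated *Peg3* transcripts, 1 has a core. *Ppp1r9a*, the gene that was lower, has 2 cores in 9547 nt, and 66.9% of genes of like length have as many or more. Of the 12 annotated *Ppp1r9a* transcripts, 4 have a core. The longest transcripts of *Cdkn1c*, *Peg13* and *Blcap* have 0 cores, as do 61.3%, 36.1% and 59.6% of genes of like length. A core shared by the longest transcripts of the 5 higher genes was therefore not found. A match is a run of letters and not a measured binding site, and introns were not searched.

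Genes known to act with imprinted genes were looked up in the same way. Of 18 genes of the insulin-like growth factor (IGF) axis, in which *Igf2* and *Igf2r* are imprinted, 2 had a row and both were lower in QKI-cKO (42.7% of the whole table). *Igfbp2*, a secreted protein that binds IGFs, had 3.02 FPKM in QKI-cKO and 4.92 FPKM in QKI-ctrl (log2 ratio -0.70). *Igf2bp2*, an RNA-binding protein known for binding the *Igf2* messenger RNA, had 1.73 FPKM in QKI-cKO and 2.75 FPKM in QKI-ctrl (log2 ratio -0.67). Of 25 regulators of imprints, among them the DNA methyltransferases, the Tet enzymes, *Zfp57*, *Trim28* and *Ctcf*, none had a row, so their levels are unknown here.

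*Cdkn1c* was set beside the other inhibitors of cyclin-dependent kinases and the pocket proteins, which hold back the cell cycle. Of these 11 genes, 3 had a row, 2 higher and 1 lower in QKI-cKO, beside 57.3% higher and 42.7% lower over the table. *Cdkn2d*, another such inhibitor, had 13.3 FPKM in QKI-cKO and 9.79 FPKM in QKI-ctrl (1.36-fold). *Rbl1*, a pocket protein gene, had 13.1 FPKM in QKI-cKO and 18.3 FPKM in QKI-ctrl (log2 ratio -0.49). *Cdkn2d* was thus listed well above *Cdkn1c* in both groups.

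The genes closest to *Mest* and *Peg3* in both pooled values were named from 331 genes other than predicted genes and pseudogenes, by the distance between log2 FPKM values over the 2 groups. Closest to *Mest* were *Neat1*, a nuclear noncoding RNA (46.2 FPKM in QKI-cKO and 25.7 FPKM in QKI-ctrl, distance 0.11), *Tes*, a protein of focal adhesions (distance 0.29), and *Zbed3* (distance 0.31). The log2 ratio was 0.84 for *Neat1* and 0.32 for both *Tes* and *Zbed3*. Closest to *Peg3* were *Rsrp1* (69.2 FPKM in QKI-cKO and 52.4 FPKM in QKI-ctrl, distance 0.09), *Pgls*, an enzyme of the pentose phosphate pathway (distance 0.12), and *Lgals3*, which encodes galectin-3 (distance 0.20). With 2 values per gene, such closeness describes the pooled levels and no more, and the ratios of *Tes* and *Zbed3* were smaller than that of *Mest*.

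Markers of cell type could be followed only where they had a row. Of 9 MuSC markers, *Itga7*, the protein used for the sort, had 145 FPKM in QKI-cKO and 237 FPKM in QKI-ctrl, and *Vcam1* had 44.9 FPKM in QKI-cKO and 67.1 FPKM in QKI-ctrl. Both were lower in QKI-cKO, as were 42.7% of the whole table. *Pax7*, *Myf5* and *Myod1* had no row. The cells were sorted on ITGA7, so *Itga7* gives no separate check of the label of the cells, which was not tested. None of the 8 markers of fibro-adipogenic and interstitial cells, in which *Peg3* is also expressed, and none of the 5 of smooth muscle and pericytes had a row. In other lists 1 marker each had a row, *Laptm5* of 7 for macrophages and leukocytes (19.9 FPKM in QKI-cKO and 12.9 FPKM in QKI-ctrl), *Ngfr* of 5 for Schwann cells (10.2 FPKM in QKI-cKO and 5.53 FPKM in QKI-ctrl) and *Esm1* of 5 for endothelium (4.05 FPKM in QKI-cKO and 9.26 FPKM in QKI-ctrl). The part of these cell types in the values of *Mest* and *Peg3* was not tested.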

How the data were processed

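The labels assign 3 MuSC libraries to QKI-cKO (KO) and 3 to QKI-ctrl (WT). Per the methods, reads were trimmed in Trimmomatic 0.39, mapped to mm10/GRCm38 in STAR 2.7 and quantified in Cufflinks 2.2.1. The deposited values are FPKM, which the authors adjusted between libraries with the geometric mean of the fragment counts and then combined, so that a group has 1 value per gene. The columns of the authors' own comparison (log2 fold change, fold change, test statistic, p and q) were not used, and 0 columns of single samples were left unused. The table names its groups only q1 and q2. The second was taken as QKI-cKO, since 5 of 5 genes that the paper names as down-regulated were lower in it.

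Ratios are QKI-cKO over QKI-ctrl without a pseudocount unless stated. No test was run, because the same pooled values chose the genes and no replicate values were used. Members and lists were chosen with earlier results of these data known. All listed members with a row were named, with the 3 genes nearest in both values and genes within 1 Mb. Gene IDs without version matched GENCODE vM21 for 397 of 398 genes. Promoters are from RefSeq. Ratio and motif functions were tested on simulated data. Alternatives were pseudocounts of 0.1 and 1 FPKM, a minimum of 1 FPKM in the higher group, narrower lists and all annotated transcripts. The tables were made with pandas 2.3.3, numpy 2.4.6 and scipy 1.17.1 in Python 3.11.15, and the plots with matplotlib 3.10.9.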

Additional observations from a re-analysis of the deposited data

How the results depend on the processing

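A pseudocount added equally to both groups can change the size of a log2 ratio but never its sign, so it does not check the direction. With 1 FPKM added to both groups the log2 ratios were 0.68 for *Mest*, 0.32 for *Peg3*, 0.35 for *Blcap*, 0.46 for *Peg13*, 0.48 for *Cdkn1c* and -0.43 for *Ppp1r9a*, and with 0.1 FPKM they were 0.59 for *Peg13*, 0.85 for *Cdkn1c* and -0.75 for *Ppp1r9a*. With 1 FPKM added, the share of the table higher by at least 25% was 47.0%, and *Peg3* fell short of that mark. Without genes imprinted in a few tissues only, 4 imprinted genes were higher (57.3% of the whole table) and 0 lower (42.7%). This narrowing leaves out *Ppp1r9a*, the only lower gene, so the count is not independent evidence of a direction. Averaged over all annotated transcripts, the cores of the QKI response element numbered 0.25 for *Peg3*, 0.273 for *Mest* and 0.417 for *Ppp1r9a*. A minimum of 1 FPKM in the higher group changed no count of imprinted genes. *Cdkn1c* (0.767 FPKM in QKI-ctrl) and *Ppp1r9a* (0.843 FPKM in QKI-cKO) met it in their higher group only. No paired analysis was possible because the table holds 1 pooled value per group, and for the same reason no replicate could be left out.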
